A study of Homo sapiens with 12 samples.

Results

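The 10 genes of prostaglandin E2 and sphingosine 1-phosphate (S1P) metabolism, PTGS1, PTGS2, PTGES, PTGES2, PTGES3, SPHK1, SPHK2, SGPP1, SGPP2 and SGPL1, were taken by symbol from the 33093 genes kept of an RNA-seq count table. Of these 10 genes, 9 passed the filter on low counts and were among the 14383 genes tested, and PTGS1 was not tested. The RNA came from HEK293T cells, a line derived from human embryonic kidney, which all groups share. WT cells and NFKB1 S80A cells were each left untreated or given TNFα at 10 ng/ml for 3 h, and each of the 4 groups had 3 libraries. NFKB1 S80A cells carry a CRISPR/Cas9 knock-in that replaces a serine of the NF-κB subunit p50 with alanine, and they were isolated as single cell clones. The number of clones sequenced is not given in the sources used here, so genotype and clone cannot be told apart. The genes were chosen by name with the fold changes and calls of these same libraries in view, and how far each value weighed in the choice is not recorded, so the fold changes and calls describe these libraries and are not independent evidence of a response.

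Prostaglandin E2 is a lipid mediator of inflammation, fever and pain. Phospholipase A2 frees arachidonic acid from membranes, the cyclooxygenases PTGS1 and PTGS2 turn it into prostaglandin H2, and the prostaglandin E synthases PTGES, PTGES2 and PTGES3 convert that to prostaglandin E2. S1P is a lipid signal for cell survival and migration that is made from sphingosine by the kinases SPHK1 and SPHK2. The phosphatases SGPP1 and SGPP2 return S1P to sphingosine, and the lyase SGPL1 cleaves it irreversibly.

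Between 15624878 and 20889577 reads per library were counted on genes. TNFα raised NFKBIA, the gene of the NF-κB inhibitor IκBα, in both genotypes, with an edgeR log2 fold change of 3.52 in WT cells against 3.66 in NFKB1 S80A cells (adjusted p = 1.58e-11 and 6.55e-12). The edited gene NFKB1 rose as well, by 1.27 and 1.56 on the log2 scale (edgeR adjusted p = 4.99e-06 and 3.19e-07). A further check gene, TNFAIP3, rose by 3.14 and 3.86 (edgeR adjusted p = 6.56e-09 and 4.76e-10). Its interaction of genotype and TNFα was 0.72 (SE 0.20, edgeR unadjusted p = 0.00306, adjusted p = 0.911). Treated NFKB1 S80A cells exceeded treated WT cells by 0.68 for TNFAIP3 and 0.39 for NFKBIA (edgeR adjusted p = 0.00422 and 0.0128). NFKB1, at 0.22, did not pass (edgeR adjusted p = 0.198). Without the first treated NFKB1 S80A library, NFKBIA did not pass either (edgeR adjusted p = 0.0705). Of the untreated NFKB1 S80A libraries, the first had 67 genes, 0.466% of those tested, at least doubled over both other libraries. The second had 175 genes, 1.22%, at least halved under both others, the most of any library. None of the 9 enzyme genes was among these on the scale used for these counts of genes, log2 CPM with a prior count of 2. That prior count shrinks differences between low counts. By normalised counts PTGES was at least doubled in the first untreated NFKB1 S80A library, at 20.4 against 8.4 and 9.5 in the others. Of the NFKB1 S80A libraries with TNFα, the first had 58 genes, 0.403% of those tested, at least doubled over both other libraries, and SGPP2 was the only one of the 9 enzyme genes among them. That library was also the highest of its group for NFKBIA, at 7156 normalised counts against 6200 and 6471. Fold changes of SGPP2 and PTGES that rest on it are given with and without it, while group means, SDs and shares include it.

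With TNFα, SGPP2 and PTGES rose in NFKB1 S80A cells to 3.56-fold (95% interval 2.37 to 5.33) and 3.32-fold (1.86 to 5.91) their untreated level. Without the first treated library SGPP2 still passed, at a log2 fold change of 1.32, while PTGES was at 1.19 and did not (edgeR adjusted p = 0.000752 and 0.268). In WT cells both had a higher mean with TNFα, 1.78-fold for SGPP2 and 1.82-fold for PTGES, and neither passed the test there. The other 7 genes tested passed for TNFα in neither genotype. SGPL1 was lower in NFKB1 S80A cells than in WT cells in both treatments, with a change of -24.3% untreated and of -25.3% with TNFα. In bulk RNA, fewer cells with a transcript and less of it per cell cannot be told apart.

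**Figure D1:**
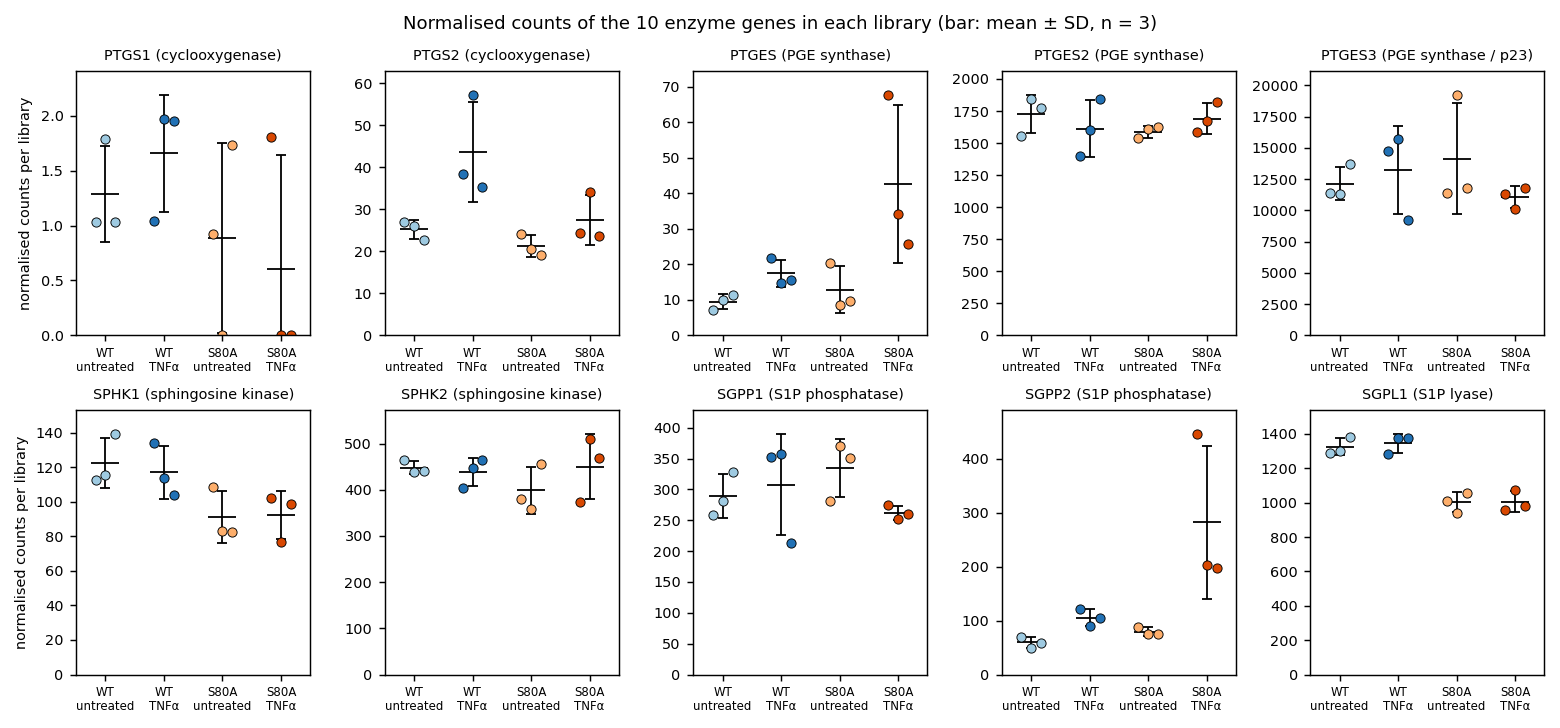
Normalised counts (vertical axes, each from 0) of the 10 enzyme genes in the 12 libraries. Points are libraries and bars give the mean ± SD of the 3 libraries of a group; the first library of NFKB1 S80A cells with TNFα is the highest point for SGPP2 (446) and for PTGES (67.8), and the 6 NFKB1 S80A libraries lie below the 6 WT libraries for SGPL1.

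SGPP2 encodes the S1P phosphatase known as the inducible form, and it lies on the plus strand of chromosome 2, from 222424543 to 222562621 in GRCh38 (GENCODE v44). In untreated WT cells its normalised counts, which are counts scaled to a common library size, were 69.4, 50.1 and 58.8. With TNFα they were 121, 90.9 and 105. All 3 treated WT libraries lay above all 3 untreated ones. In NFKB1 S80A cells SGPP2 was at 89.0, 74.5 and 75.5 without TNFα and at 446, 203 and 197 with it. The treated libraries again lay above the untreated ones, and the first stood far above the other two. The edgeR log2 fold change for TNFα was 0.83 (SE 0.30, adjusted p = 0.547) in WT cells against 1.83 (SE 0.27, adjusted p = 0.0019) in NFKB1 S80A cells. Fitted on only the 6 NFKB1 S80A libraries, the latter was 1.83 and narrowly missed the threshold (edgeR adjusted p = 0.0507). Without the first treated NFKB1 S80A library it was 1.32 (SE 0.17, edgeR adjusted p = 0.000752). Without that same library, which is in neither arm of the WT comparison but enters the shared estimate of spread, the WT value was 0.83 with an edgeR adjusted p of 0.0306.

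SGPP1, the second S1P phosphatase, lies on the minus strand of chromosome 14 from 63684216 to 63728065. It was at 259, 281 and 329 normalised counts in untreated WT cells and at 353, 358 and 213 with TNFα. It was at 281, 370 and 352 in untreated NFKB1 S80A cells and at 275, 252 and 260 with TNFα. In NFKB1 S80A cells the treated libraries lay just below the untreated ones, while in WT cells the groups overlapped. For TNFα the edgeR log2 fold change was 0.09 (SE 0.17, adjusted p = 0.997) in WT cells against -0.35 (SE 0.17, adjusted p = 0.56) in NFKB1 S80A cells. On a scale of CPM per kilobase of exon, SGPP2 made up 12.2% ± 2.62 (SD, n = 3) of the summed level of SGPP1 and SGPP2 in untreated WT cells, 19.3% ± 5.12 in WT cells with TNFα and 13.98% ± 3.07 in untreated NFKB1 S80A cells. In NFKB1 S80A cells with TNFα its share was 40.3% ± 10.2, from 52.1%, 35.0% and 33.7%. All 3 of these shares were above every share in the other 9 libraries, of which the highest was 24.7%.

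The 250 bases before the RefSeq starts of SGPP2, PTGES and PTGS2 are shown because these genes had the largest log2 fold changes for TNFα among the 9, and because NF-κB dimers bind DNA at κB sites. They are written 5′ to 3′ on the strand of the gene in GRCh38, with capitals for bases in a match on either strand to the κB consensus searched or to a looser form of it that allows more bases at a pair of its positions. The windows are chr2:222423738-222423987 for SGPP2 (plus strand), chr9:129753043-129753292 for PTGES (minus strand) and chr1:186680424-186680673 for PTGS2 (minus strand).
SGPP2: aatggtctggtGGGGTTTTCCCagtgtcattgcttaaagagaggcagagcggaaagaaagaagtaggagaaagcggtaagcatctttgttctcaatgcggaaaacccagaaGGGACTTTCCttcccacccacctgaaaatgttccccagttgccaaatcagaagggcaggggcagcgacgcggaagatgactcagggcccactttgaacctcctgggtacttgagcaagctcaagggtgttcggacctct
PTGES: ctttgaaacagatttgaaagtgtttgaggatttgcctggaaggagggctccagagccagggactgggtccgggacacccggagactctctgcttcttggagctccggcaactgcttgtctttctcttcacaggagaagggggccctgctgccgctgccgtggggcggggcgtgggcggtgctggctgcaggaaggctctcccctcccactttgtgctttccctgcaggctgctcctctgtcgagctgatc
PTGS2: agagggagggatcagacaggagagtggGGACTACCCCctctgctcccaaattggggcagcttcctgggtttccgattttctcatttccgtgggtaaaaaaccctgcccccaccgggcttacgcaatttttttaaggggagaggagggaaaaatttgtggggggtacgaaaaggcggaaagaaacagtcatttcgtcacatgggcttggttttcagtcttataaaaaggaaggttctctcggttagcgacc

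In the SGPP2 window the κB consensus matched at 2 places, GGGGTTTTCC at -239 to -230 and GGGACTTTCC at -139 to -130 relative to the start. The base after the first match belongs to an overlapping match of the looser form. A second RefSeq start of SGPP2 has the window chr2:222424293-222424542, which ends at the base before the GENCODE gene start, and it held 0 matches to the consensus and 7 to the GC box GGGCGG. PTGES had 0 κB matches in its window of 250 bases before and 50 bases after the start and 2 GC boxes, at -89 to -84 and at -78 to -73. PTGS2 had 1 match, to the looser form, GGACTACCCC at -223 to -214, and a TATAAA box at -32 to -27. Of the 9 enzyme genes with a promoter in the RefSeq table, SGPP2 was the 1 gene with a match to the κB consensus, and SGPP2, PTGS2 and PTGES2 were the 3 with a match to the looser form. Among all 35114 promoter windows of 300 bases, 5.91% held the consensus, 17.4% the looser form, 45% a GC box and 11.5% TATAAA, each searched on both strands. The counts of enzyme genes are per gene, and some of these genes have several windows. They therefore cannot be set directly against these shares of windows. A match is a run of letters and not a measured binding site, and its absence from a window says nothing of κB sites elsewhere.

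PTGES encodes microsomal prostaglandin E synthase-1, the inducible synthase that works with PTGS2, and lies on the minus strand of chromosome 9 from 129738331 to 129753042. It was read few times, between 7 and 75 counts in a library. Its normalised counts were 7.2, 9.8 and 11.3 in untreated WT cells and 21.8, 14.8 and 15.7 with TNFα. They were 20.4, 8.4 and 9.5 in untreated NFKB1 S80A cells and 67.8, 34.2 and 25.8 with TNFα. The treated libraries lay above the untreated ones in both genotypes, and the first library was the highest of both NFKB1 S80A groups. The edgeR log2 fold change for TNFα was 0.86 (SE 0.47, adjusted p = 0.939) in WT cells against 1.73 (SE 0.39, adjusted p = 0.0448) in NFKB1 S80A cells. Leaving out 1 library at a time, it passed only without the first untreated or the third treated NFKB1 S80A library (edgeR adjusted p = 0.0168 or less), and the other 10 fits gave an adjusted p of 0.059 to 0.268. Without the first treated NFKB1 S80A library the log2 fold change was 1.19 (edgeR adjusted p = 0.268).

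The other E synthases did not pass the test in any comparison. PTGES2, a membrane-associated synthase on chromosome 9 from 128120693 to 128128462, ranged from 1397 to 1846 normalised counts over the 6 WT libraries and from 1536 to 1819 over the 6 NFKB1 S80A libraries. PTGES3, which is also the HSP90 co-chaperone p23, lies on chromosome 12 from 56663341 to 56688408 and ranged from 9235 to 15680 in WT cells and from 10093 to 19252 in NFKB1 S80A cells. The 19252 was 1 untreated library, with the other two of its group at 11346 and 11758. The edgeR log2 fold changes of PTGES2 for TNFα were -0.10 (SE 0.10) in WT cells against 0.09 (SE 0.10) in NFKB1 S80A cells, with 95% intervals from -0.31 to 0.12 and from -0.13 to 0.31. GENCODE names 5 pseudogenes of PTGES3, and the count table has rows for 0 of them, so reads shared with them cannot be told apart.

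Of the cyclooxygenases, PTGS2 (COX-2), the form known to be induced by inflammatory signals, lies on the minus strand of chromosome 1 from 186671791 to 186680922. Its normalised counts were 26.9, 25.9 and 22.7 in untreated WT cells and 38.4, 57.3 and 35.2 with TNFα. The NFKB1 S80A libraries were at 24.1, 20.4 and 19.1 untreated and 24.4, 34.2 and 23.6 with TNFα. The WT groups did not overlap and the NFKB1 S80A groups did. For TNFα edgeR gave a log2 fold change of 0.79 (SE 0.23, unadjusted p = 0.0043, adjusted p = 0.287) in WT cells against 0.36 (SE 0.26, adjusted p = 0.7) in NFKB1 S80A cells. With TNFα, the 3 NFKB1 S80A libraries lay below the 3 WT libraries, with a log2 fold change of -0.68 (SE 0.23, edgeR adjusted p = 0.094). PTGS1 (COX-1), the constitutive form, was read 14 times in all 12 libraries together, with 0, 1 or 2 counts in each. This is under the floor of 3 counts that a count of 0 allows, so no fold change is given.

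**Figure D2:**
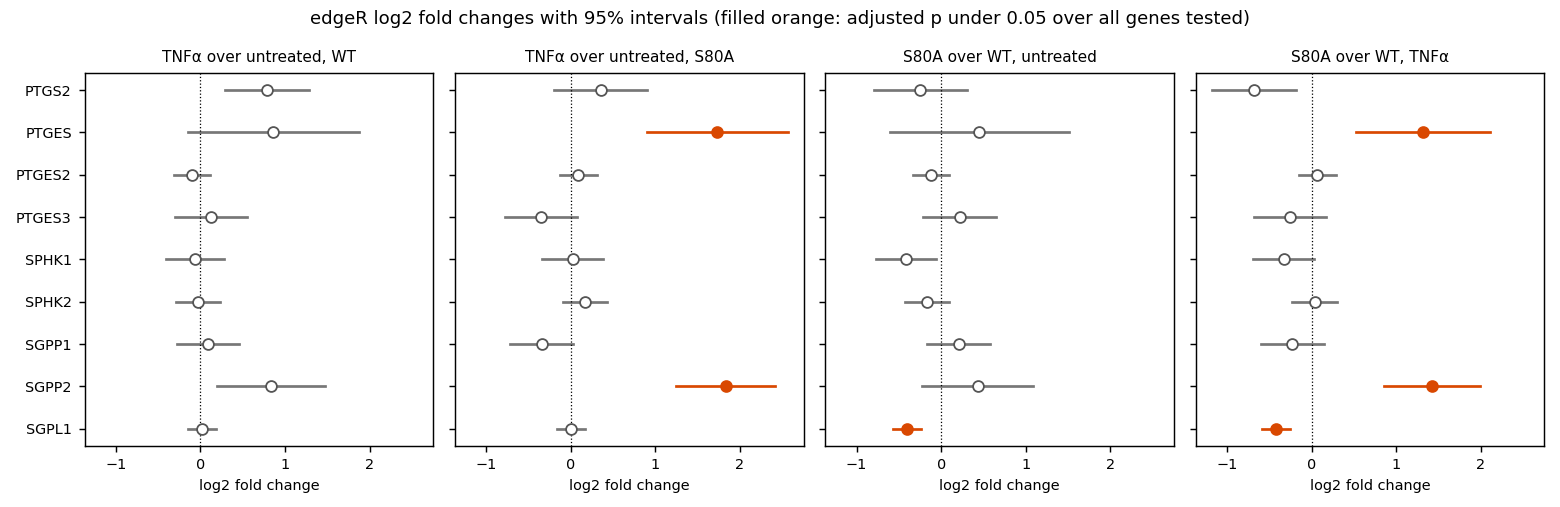
Log2 fold changes from edgeR (horizontal axes) of the 9 enzyme genes tested in the 4 comparisons. Points are estimates, lines are 95% intervals, and filled orange points have an adjusted p under 0.05 over all genes tested; these are SGPP2 and PTGES for TNFα in NFKB1 S80A cells, SGPL1 between untreated genotypes, and SGPP2, PTGES and SGPL1 between genotypes with TNFα.

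The kinases that make S1P did not pass the test with TNFα. SPHK1, on the plus strand of chromosome 17 from 76376584 to 76387860, was at 113, 115 and 139 normalised counts in untreated WT cells and at 134, 114 and 104 with TNFα. The NFKB1 S80A libraries were at 108, 82.9 and 82.5 untreated and at 102, 76.7 and 98.7 with TNFα. The NFKB1 S80A libraries lay below the WT libraries in each treatment, though the distance between the nearest was small. The edgeR log2 fold change between genotypes was -0.42 (SE 0.16, adjusted p = 0.166) untreated and -0.33 (SE 0.17, adjusted p = 0.26) with TNFα. SPHK2, on chromosome 19 from 48619291 to 48630717, lay between 359 and 510 in all 12 libraries, and its edgeR log2 fold changes for TNFα were -0.03 (SE 0.12) in WT cells against 0.17 (SE 0.12) in NFKB1 S80A cells.

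SGPL1, the S1P lyase, is on the plus strand of chromosome 10 from 70815905 to 70895816. Its normalised counts were 1291, 1302 and 1381 in untreated WT cells and 1281, 1375 and 1378 with TNFα. They were 1007, 942 and 1057 in untreated NFKB1 S80A cells and 957, 1074 and 983 with TNFα. No NFKB1 S80A library reached the lowest WT library. TNFα made no difference that the test could detect, with 95% intervals of the log2 fold change from -0.14 to 0.19 in WT cells and from -0.17 to 0.17 in NFKB1 S80A cells. Between genotypes the edgeR log2 fold change was -0.40 (SE 0.08, adjusted p = 0.00688) untreated and -0.42 (SE 0.08, adjusted p = 0.00495) with TNFα, and both passed in each of the 12 fits that left out 1 library. The fibroblast genes COL1A1 and COL3A1, 2 of 2 tested, moved with the genotype too, with a summed level of 14.6 to 16.7 CPM in the 6 WT libraries and 6.25 to 8.21 CPM in the 6 NFKB1 S80A libraries, and their part in the differences between genotypes was not tested. SGPL1 overlaps PCBD1, SPHK1 overlaps PRPSAP1 and SPHK2 overlaps DBP on the opposite strand. The library kit keeps strand, and whether counting used it is not given in the sources used here, so reads of these 3 genes and of their neighbours cannot be told apart here. Overlaps with non-coding genes include a long non-coding RNA on the same strand as SGPL1, over 79828 bp, which strand cannot separate. They also include PACERR, opposite PTGS2 over 322 bp. The count table has no row for either.

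Between genotypes with TNFα, SGPP2 was higher in NFKB1 S80A cells, with an edgeR log2 fold change of 1.43 (SE 0.26, adjusted p = 0.00507). Without the first treated NFKB1 S80A library it was 0.92 (SE 0.16, edgeR adjusted p = 0.00736), so it passed with a smaller difference. PTGES was also higher, by 1.32 (SE 0.37, edgeR adjusted p = 0.046), and by 0.78 (edgeR adjusted p = 0.256) without that library. Of the 12 fits that left out 1 library, 3 kept the PTGES call, those without the first or second untreated or the third treated NFKB1 S80A library, and the other 9 gave an edgeR adjusted p of 0.057 to 0.256. In untreated cells the log2 fold change between genotypes was 0.43 (SE 0.31, edgeR adjusted p = 0.484) for SGPP2 and 0.45 (SE 0.49, edgeR adjusted p = 0.682) for PTGES. The untreated SGPP2 libraries of the genotypes did not overlap, while those of PTGES did, and PTGES was at -0.07 without the first untreated NFKB1 S80A library.

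Whether the response to TNFα differed between genotypes was asked by the interaction term. For SGPP2 it was 1.00 on the log2 scale (SE 0.41, unadjusted p = 0.0275, edgeR adjusted p = 0.911), and for PTGES 0.87 (SE 0.63, edgeR adjusted p = 0.911). Without the first treated NFKB1 S80A library these values were 0.49 and 0.33, and neither had an unadjusted p under 0.05 in edgeR (0.0561 and 0.544). For PTGS2 the interaction was -0.43 (SE 0.35, edgeR adjusted p = 0.911). A response that passed in NFKB1 S80A cells and not in WT cells was therefore not shown to differ between them. None of the 9 genes passed for the interaction by edgeR (SGPP2 alone had an unadjusted p under 0.05) or by DESeq2, against 0% of all genes tested and 3.62% with an unadjusted p under 0.05.

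For TNFα in WT cells 0 of the 9 genes passed in edgeR or in DESeq2, against 0.688% of all genes tested, and 2 (PTGS2 and SGPP2) had an unadjusted edgeR p under 0.05, against 5.97%. In NFKB1 S80A cells 2 of 9 passed, both higher, against 1.26% of all genes in either direction and 0.966% that were higher. Between untreated genotypes 1 of 9 passed, lower in NFKB1 S80A cells, against 6.26% in either direction and 4.21% lower. With TNFα 3 of 9 passed, 2 higher and 1 lower, against 7.36% in either direction, 2.92% higher and 4.44% lower. Groups that did not overlap were found for 3 of 9 genes with TNFα in WT cells (12.7% of all genes), 3 of 9 with TNFα in NFKB1 S80A cells (14.4%), 3 of 9 between untreated genotypes (25%) and 5 of 9 between genotypes with TNFα (26.2%). The median log2 fold change of the 9 genes in these 4 comparisons was 0.09, 0.09, -0.12 and -0.23, against 0.00, 0.00, 0.01 and 0.00 over all genes tested. The comparisons share groups of libraries and are not independent of each other.

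**Figure D3:**
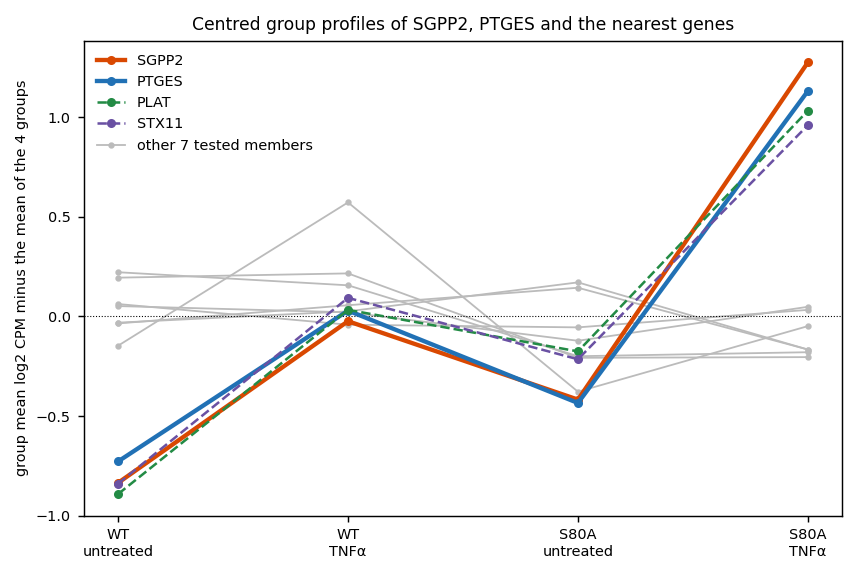
Group means of log2 CPM minus the gene's mean over the 4 groups (vertical axis) in the 4 groups (horizontal axis). SGPP2 and PTGES run close together and end highest in NFKB1 S80A cells with TNFα, as do PLAT and STX11. Of the other 7 enzyme genes tested (grey), PTGS2 is highest in WT cells with TNFα, at 0.57.

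SGPP2 and PTGES followed each other across the 4 groups. Likeness was measured as the root mean square difference between the 4 centred group means of log2 CPM, over 14382 other genes. PTGES was the gene nearest to SGPP2, at 0.094, and SGPP2 the nearest to PTGES. Next to SGPP2 came PLAT, the tissue plasminogen activator, at 0.176, and STX11, a syntaxin of vesicle fusion, at 0.197. The same genes were next to PTGES, at 0.161 and 0.154. PLAT was at 461 ± 80.3 normalised counts (SD, n = 3) in untreated WT cells, 875 ± 128 in WT cells with TNFα, 760 ± 134 in untreated NFKB1 S80A cells and 1762 ± 339 in NFKB1 S80A cells with TNFα. STX11 was at 17.3 ± 4.36, 34.4 ± 4.69, 27.6 ± 6.06 and 64.1 ± 4.57 in the same order. Without the first treated NFKB1 S80A library, PTGES was 2nd to SGPP2, at 0.093, behind STX11 at 0.0811. For PTGES without that library, SGPP2 stayed the nearest, STX11 was 3rd and PLAT 6th. PTGS2 ranked 7755 of the 14382 by its distance from SGPP2. SGPP2 and PTGES were taken for this step because they passed for TNFα in these same groups, so their nearness is not independent evidence. The 4 group means share libraries, and the profile of 4 points is a description.

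Levels could be compared between genes per length. By the median over 12 libraries of CPM per kilobase of exon, PTGES3 was the highest at 184, with a range of 147 to 305, and PTGES2 was next at 14.3 (12.4 to 16.4). SGPL1 was at 5.50 (4.4 to 6.45), SGPP1 at 4.54 (3.45 to 5.98) and SPHK2 at 3.98 (3.22 to 4.57). These 3 ranges overlapped, and SGPP1 and SPHK2 changed places when the longest transcript was used as the length. SPHK1 was at 1.30 (0.937 to 1.70), SGPP2 at 0.973 (0.542 to 4.82), PTGES at 0.435 (0.207 to 1.93) and PTGS2 at 0.248 (0.188 to 0.563). Neighbours in this last run overlapped as well. The order was not that of every group. In NFKB1 S80A cells with TNFα the mean of SGPP2 was 3.05 ± 1.53 (SD, n = 3), above SPHK1 at 1.13 ± 0.169, and PTGES at 1.21 ± 0.635 did not differ from SPHK1 beyond that spread. PTGS1 was at 0.00967, below the level of 3 counts. SPHK1 made up 27.1% ± 2.70 (SD, n = 3) of the summed SPHK1 and SPHK2 level in untreated WT cells, 26.7% ± 3.95 with TNFα, and 23.9% ± 4.12 and 22.2% ± 5.09 in NFKB1 S80A cells. PTGES made up 1.73% ± 0.271, 3.45% ± 1.16, 2.54% ± 1.35 and 7.55% ± 4.05 of the summed PTGES and PTGES2 level in the same order. These shares depend on the exon length used. With the longest transcript, the median level went from 14.3 to 25.1 for PTGES2 and from 0.435 to 0.440 for PTGES, which would lower the PTGES shares.

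**Figure D4:**
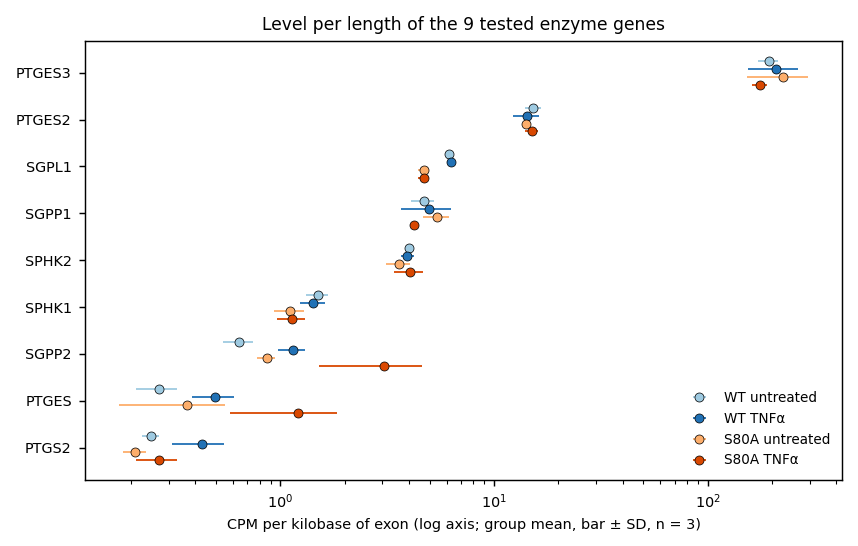
Level of the 9 enzyme genes tested in CPM per kilobase of exon (horizontal log axis) by gene and group. Points are group means and bars ± SD of 3 libraries; the genes span from 0.248 for PTGS2 to 184 for PTGES3 by their medians, and SGPP2 and PTGES are highest in NFKB1 S80A cells with TNFα.

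Other genes of prostaglandin metabolism and signalling numbered 27, of which 15 were tested. TNFα changed 1 in WT cells (1 higher, 0 lower) and 2 in NFKB1 S80A cells (1 higher, 1 lower), against 0.688% and 1.26% of all genes tested. The gene that rose in both was PLA2G4C, a cytosolic phospholipase A2, on the first step of the pathway. Its normalised counts were 8.28, 8.05 and 8.25 in untreated WT cells and 38.4, 41.5 and 45.02 with TNFα. They were 14.8, 10.8 and 12.2 in untreated NFKB1 S80A cells and 50.6, 43.7 and 45.1 with TNFα. Every treated library was above every untreated one. The edgeR log2 fold change was 2.33 (SE 0.22, adjusted p = 3.91e-05) in WT cells against 1.87 (SE 0.20, adjusted p = 0.000105) in NFKB1 S80A cells, and with TNFα the genotypes differed by 0.16 (SE 0.17, edgeR adjusted p = 0.637). ZADH2 (PTGR3), a prostaglandin reductase of the breakdown branch, fell by 0.37 on the log2 scale in NFKB1 S80A cells (edgeR adjusted p = 0.0313) and was at -0.35 in WT cells (edgeR adjusted p = 0.0661). Its call in NFKB1 S80A cells passed in 4 of the 12 fits without 1 library and had an edgeR adjusted p of 0.0524 to 0.162 in the other 8. Prostanoid receptors were sparse, with 4 of 9 tested and at most 8 counts in a library for any of the other 5.

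Between genotypes, 1 of the 15 prostaglandin genes passed untreated (0 higher, 1 lower) and 2 with TNFα (0 higher, 2 lower), against 6.26% and 7.36% of all genes tested, so the untreated share was near that of all genes. PLA2G4A, the main calcium-dependent cytosolic phospholipase A2, was at 540, 512 and 567 normalised counts in untreated WT cells and at 360, 420 and 359 in untreated NFKB1 S80A cells. With TNFα it was at 562, 527 and 510 in WT cells and at 307, 321 and 381 in NFKB1 S80A cells. The genotypes did not overlap in either treatment, with edgeR log2 fold changes of -0.51 (SE 0.10, adjusted p = 0.00895) and -0.67 (SE 0.10, adjusted p = 0.0018). ABCC4, a transporter that exports prostaglandins, was at -0.32 with TNFα (edgeR adjusted p = 0.0479), a call that 3 of the 12 fits without 1 library kept and that had an edgeR adjusted p of 0.0622 to 0.188 in the other 9. The median log2 fold change of the 15 genes was -0.02 and -0.16 for TNFα in WT and NFKB1 S80A cells, and 0.12 and -0.08 between genotypes untreated and with TNFα.

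**Figure D5:**
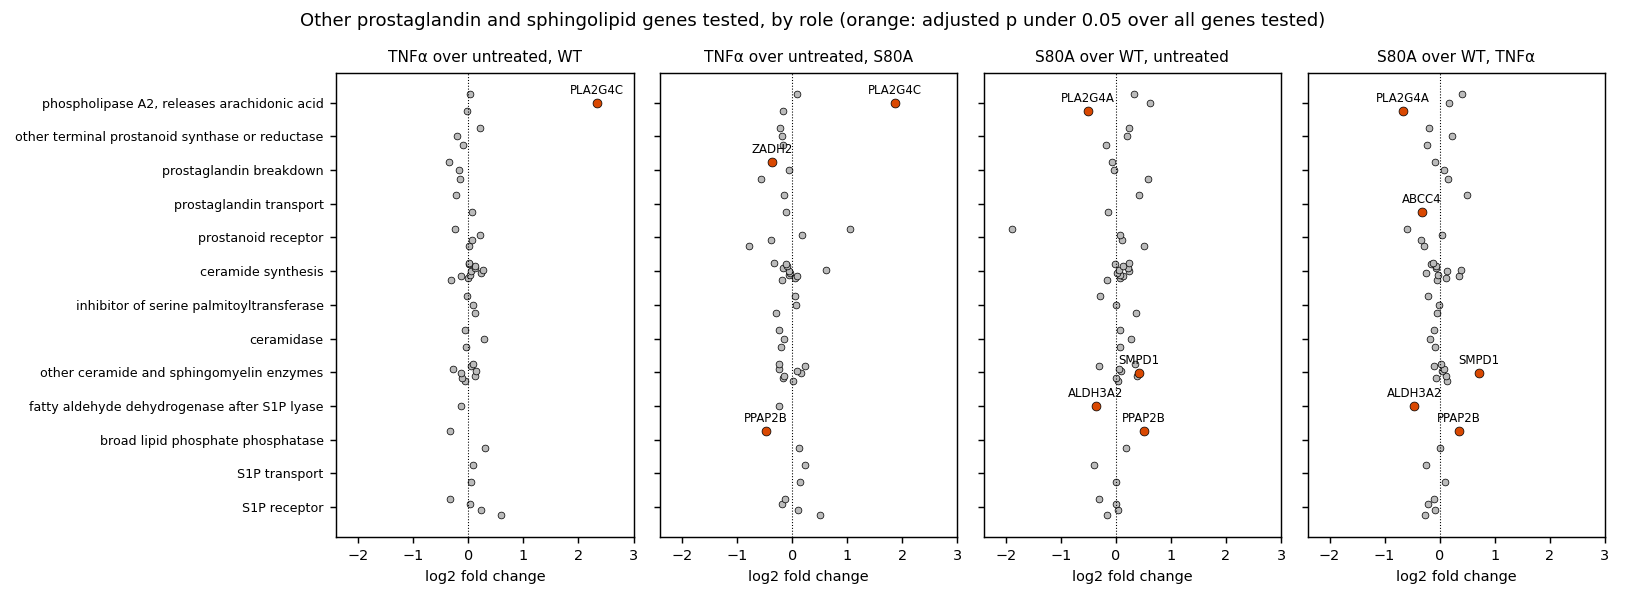
Log2 fold changes from edgeR (horizontal axes) of the 15 prostaglandin and 34 sphingolipid genes tested outside the 10 enzymes, in rows by role, in the 4 comparisons. Each point is a gene, orange and named where the adjusted p was under 0.05 over all genes tested; PLA2G4C stands apart to the right in both TNFα panels, at 2.33 and 1.87.

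Of 42 other genes of sphingolipid metabolism and S1P signalling, 34 were tested. With TNFα 0 passed in WT cells, and 1 passed in NFKB1 S80A cells, where it was lower, against 0.688% and 1.26% of all genes tested. That gene was PPAP2B (PLPP3), a broad lipid phosphate phosphatase of the cell surface that also acts on S1P. It was at 350, 367 and 328 normalised counts in untreated WT cells, 278, 274 and 280 with TNFα, 483, 479 and 522 in untreated NFKB1 S80A cells, and 330, 359 and 374 with TNFα. The treated libraries lay below the untreated ones in both genotypes, with an edgeR log2 fold change of -0.33 (SE 0.09) that did not pass in WT cells and of -0.48 (SE 0.09, adjusted p = 0.0113) in NFKB1 S80A cells. The latter had an edgeR adjusted p of 0.0562 to 0.0878 without the third untreated, or the first or second treated, NFKB1 S80A library. None of the 14 ceramide synthesis genes listed, 11 of them tested, and none of the 4 S1P receptors tested passed in any of the 4 edgeR comparisons.

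Between genotypes, 3 of the 34 sphingolipid genes passed untreated and 3 with TNFα, 2 higher and 1 lower in NFKB1 S80A cells each time. These shares were near the 6.26% and 7.36% of all genes tested. The lower one was ALDH3A2, the fatty aldehyde dehydrogenase that oxidises the hexadecenal released by SGPL1. It was at 2180, 2307 and 2268 normalised counts in untreated WT cells and at 1713, 1845 and 1692 in untreated NFKB1 S80A cells, and at 2018, 2072 and 2046 against 1500, 1436 and 1525 with TNFα. The genotypes did not overlap in either treatment. By edgeR the log2 fold changes were -0.36 (SE 0.07, adjusted p = 0.00493) and -0.46 (SE 0.07, adjusted p = 0.00106), beside -0.40 and -0.42 for SGPL1 on the step before it. The higher ones were PPAP2B, by 0.51 and 0.35 (edgeR adjusted p = 0.00352 and 0.0319), and SMPD1, the lysosomal acid sphingomyelinase, by 0.42 and 0.72 (edgeR adjusted p = 0.0422 and 0.00214). The smaller value of each was lost in most fits without 1 library, PPAP2B with TNFα in 7 of 12 (edgeR adjusted p = 0.0501 to 0.129) and SMPD1 untreated in 9 of 12 (0.0506 to 0.148). The median of the 34 genes was 0.04 and -0.08 for TNFα in WT and NFKB1 S80A cells, and 0.06 and -0.06 between genotypes untreated and with TNFα.

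The libraries were checked against markers of other cells. All 6 HEK293T markers were tested, and their summed level was higher with TNFα without overlap, from 741 to 785 CPM untreated to 869 to 975 CPM treated in WT cells and from 592 to 762 CPM to 813 to 881 CPM in NFKB1 S80A cells. Its part in the differences with TNFα was not tested. Of 3 leukocyte markers 0 passed the filter, the leukocyte gene PTPRC was at 0 in all libraries, and the sum was at most 0.504 CPM. The 2 endothelial markers summed to at most 0.112 CPM. The fibroblast list, given beside SGPL1, was the 1 list of the 4 whose ranges did not overlap between the genotypes.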

How the data were processed

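HEK293T RNA from WT and NFKB1 S80A cells was sequenced by the authors as single-end 75 bp reads of stranded poly(A) libraries. The submitters' processing notes name HISAT, StringTie, HTSeq, DESeq2 and the build GRCh38, and versions and counting options are not given in the sources used here. The values are raw counts per gene, as deposited by the authors. Columns of the authors' own comparisons (fold changes and p-values) were not used. Of 33121 rows, 28 whose symbols had turned into dates were left out. Groups came from the sample titles. The description of the third WT library with TNFα repeats the tag of the second, but their counts differ beyond sampling noise (chi-square per gene 14.4) and they were kept as separate libraries. Replicates are described as independently generated. All 12 libraries were fitted in edgeR 4.0.16 (R 4.3.3) by the quasi-likelihood test on 4 group means, after filterByExpr with a minimum count of 10 and TMM scaling, with Benjamini-Hochberg adjustment over 14383 genes and a threshold of 0.05. SE is the log2 fold change divided by the root of F. Log2 CPM used a prior count of 2. The fit, tested on simulated data for TNFα in WT cells (14383 genes, 200 changed), recovered 85% of genes changed by 1 and 99% of those changed by 2 on the log2 scale, and 5.6% of its calls were false. The 200 were drawn at random from all genes tested. These shares therefore do not give the recovery for PTGES or SGPP2, whose SE for TNFα in WT cells was 0.47 and 0.30. DESeq2 1.42.0, other scalings and filters, the 6 samples compared alone, each library left out and a replicate block were tried as alternatives. Gene lengths came from GENCODE v44 and promoters from RefSeq (GRCh38.p14). The genes, lists and tests were chosen with earlier results of these data known. Besides the 10 genes, the text names the pathway genes that passed in a comparison, the nearest genes by profile and the check genes.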

Additional observations from a re-analysis of the deposited data

How the results depend on the processing

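No called value changed sign. Some values that were not called did in fits without 1 library. Between untreated genotypes PTGES went from 0.45 to -0.07 without the first untreated NFKB1 S80A library. PTGES3 went from 0.22 to -0.07 there without the second. Values of PTGES2, SGPP1, SPHK1, SPHK2 and SGPL1 that were not called also changed sign in at least 1 comparison. Over all alternatives and comparisons, 858 of 885 values of the 9 enzyme genes stayed on their side of the threshold, 24 lost a call and 3 gained one, and for the other named genes these were 930, 52 and 3 of 985. For TNFα in WT cells the number of the 9 genes called rose from 0 to 1 (SGPP2) with only the 6 samples compared, and to 1 when the first library of both NFKB1 S80A groups was left out, an alternative chosen after seeing the data. For TNFα in NFKB1 S80A cells it fell from 2 to 1 with scaling by total counts, to 1 with at least 10 counts required in every sample, where PTGES is not tested, and to 0 with only the 6 samples compared, where SGPP2 had an edgeR adjusted p of 0.0507. Between untreated genotypes it fell from 1 to 0 when a log2 fold change of at least 1 was also required. Between genotypes with TNFα it fell from 3 to 2 with a log2 fold change of at least 1, with total counts, with at least 10 counts in every sample and without both first NFKB1 S80A libraries, where PTGES was at 0.78 (edgeR adjusted p = 0.139). Leaving out 1 library at a time gave 0 to 1, 1 to 2, 1 to 1 and 2 to 3 genes called in the 4 comparisons, in the order TNFα in WT, TNFα in NFKB1 S80A, untreated genotypes and genotypes with TNFα, and 0 to 0 for the interaction.

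Over all genes, the calls of those 4 comparisons (99, 181, 900 and 1058) became 53, 64, 199 and 205 with a log2 fold change of at least 1. With only the 6 samples compared they became 71 for TNFα in NFKB1 S80A cells and 456 between untreated genotypes. Without both first NFKB1 S80A libraries there were 103 for TNFα in NFKB1 S80A cells and 632 between genotypes with TNFα, and DESeq2 gave 155 for TNFα in WT cells. Leaving out 1 library gave 65 to 145, 98 to 193, 356 to 1039 and 434 to 1646. With the longest transcript as length, the median level rose from 1.30 to 2.29 CPM per kilobase for SPHK1, 5.50 to 10.99 for SGPL1, 3.98 to 7.76 for SPHK2 and 14.3 to 25.1 for PTGES2. The shifts with the longest transcript follow from dividing the same CPM by another length, and those with the added fold change threshold follow from that threshold. The cause of the other shifts was not tested, apart from the smaller number of samples or genes that an alternative itself sets.

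The labels do not say that a replicate number marks a shared batch or day, and 9 of 18 same-numbered pairs had a correlation of deviations over 0.1, so the numbers were not taken to pair the libraries. The first libraries did deviate together, with correlations of 0.116 to 0.495 in every pair of them. The mean over pairs was 0.118 for equal and -0.0589 for different numbers. Because deviations were taken from each group's mean, the second value is nearly fixed by the first and is no separate contrast. Of 12 libraries, 6 correlated best with their own number. With the replicate number as a block, no call of the 9 genes changed. SGPP2 had an edgeR adjusted p of 0.000135 and PTGES of 0.0105 for TNFα in NFKB1 S80A cells. Intervals cover the spread between libraries only, and PTGES rests on 7 to 75 counts in a library.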
